A study of Homo sapiens with 6 samples.

Results

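The metalloproteinases of the extracellular space and their tissue inhibitors were described across a pair of cell lines. The members were all genes of the table whose symbols named a matrix metalloproteinase (MMP), an ADAM, an ADAMTS or a tissue inhibitor of metalloproteinases (TIMP), taken by symbol, without a rule on their values. They were 68 of the 20811 genes measured, with 23 MMPs, 22 ADAMs, 19 ADAMTSs and 4 TIMPs. The cells were HuCCT1, an established human intrahepatic cholangiocarcinoma line, transduced at a multiplicity of infection of 40 either with a lentivirus carrying human THY1 (HuCCT1/CD90+, 3 libraries) or with the blank lentivirus (HuCCT1/CD90-, 3 libraries). THY1 encodes CD90, a surface glycoprotein. Both vector names include CMV and GFP, and that of the blank vector alone includes Puro. The labels do not say whether either line was 1 clone, nor whether the 3 libraries of a line came from separate cultures. The p-values therefore measure the spread between these libraries, which may be technical. The comparison asks how forced CD90 expression and the blank vector differ in the transcripts of these proteases.

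MMPs are zinc proteases that cut collagens, elastin and other matrix proteins, and most are made as inactive proenzymes that other proteases activate. ADAMs are membrane-bound relatives that release the outer part of growth factors and receptors from the cell surface, ADAMTSs are secreted relatives that cut proteoglycans and process procollagen, and the TIMPs block members of all of these families. In cholangiocarcinoma, as in other carcinomas, these proteases are studied for matrix breakdown during invasion and for the release of ligands of the EGF receptor. A transcript level says nothing of how much of a protease is active.

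Values are RPM, the number of reads of a gene scaled to a common library total, and each gene is read over 1 amplicon, so that levels of different genes are not compared. The libraries held 8587634 to 10551516 reads, and a member was taken as at the floor in a line when none of its 3 libraries had over 3 reads of it (0.284 to 0.349 RPM). THY1, the transduced gene, was at 0, 0.107 and 0 RPM in HuCCT1/CD90- and at 46.6, 51.8 and 73.8 RPM in HuCCT1/CD90+, at least 179-fold higher. The 6 epithelial and biliary markers checked (KRT7, KRT8, KRT18, KRT19, EPCAM and SOX9) were all above 1 RPM in both lines, with EPCAM (means of 28.6 and 363 RPM) and KRT18 (645 and 1266 RPM) called higher in HuCCT1/CD90+. Differences are given as log2 fold changes of RPM + 1, HuCCT1/CD90+ minus HuCCT1/CD90-, with the standard error (SE) and adjusted p from limma, and a call needed an adjusted p no larger than 0.05 together with a fold of 1.5 or more.

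Of the 68 members, 3 rose and 12 fell in HuCCT1/CD90+. The called share was 22.1%, beside a called share of 15.1% over all genes of the table. The lower calls made up 17.6% of the members and 7.49% of all genes, and the higher calls 4.41% of the members and 7.59% of all genes. The genes that fell were the collagenases MMP1 and MMP13, the elastase MMP12, the membrane-type MMP14, MMP15 and MMP24, MMP28, ADAM19, ADAMTS2, ADAMTS15 and the inhibitors TIMP1 and TIMP2. The genes that rose were ADAM9, ADAM11 and ADAMTS9, and no MMP or TIMP was called higher. With the study's own thresholds, an unadjusted p of 0.05 and the same fold, 3 members were higher and 14 lower, where 20.1% of all genes passed, 10.1% higher and 9.98% lower. With edgeR on the recovered reads, without a filter, 4 members were called higher and 16 lower, beside 11.3% and 11.2% of all genes. With DESeq2 it was 4 and 14, beside 15.1% and 14.4% of the 14368 genes that DESeq2 gave an adjusted p. With the replicate block it was 1 and 9, beside 5.24% and 4.86% of all genes. The median log2 fold change was -0.014 over the 68 members and 0 over all genes. Over the 28 members that averaged 1 RPM or more across all 6 libraries it was -0.52, and over the 12062 genes of that level -0.0086, which is a description only, since a gene can reach that level through the line in which it is high. Many members were hardly read at all. In both lines 26 members were at the floor, 15 of them without a read in any library, and 29 members reached a mean of 1 RPM in at least 1 line. Of the 20811 genes of the table, 6713 were at the floor in both lines and 3805 had no read in any library.

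**Figure D1:**
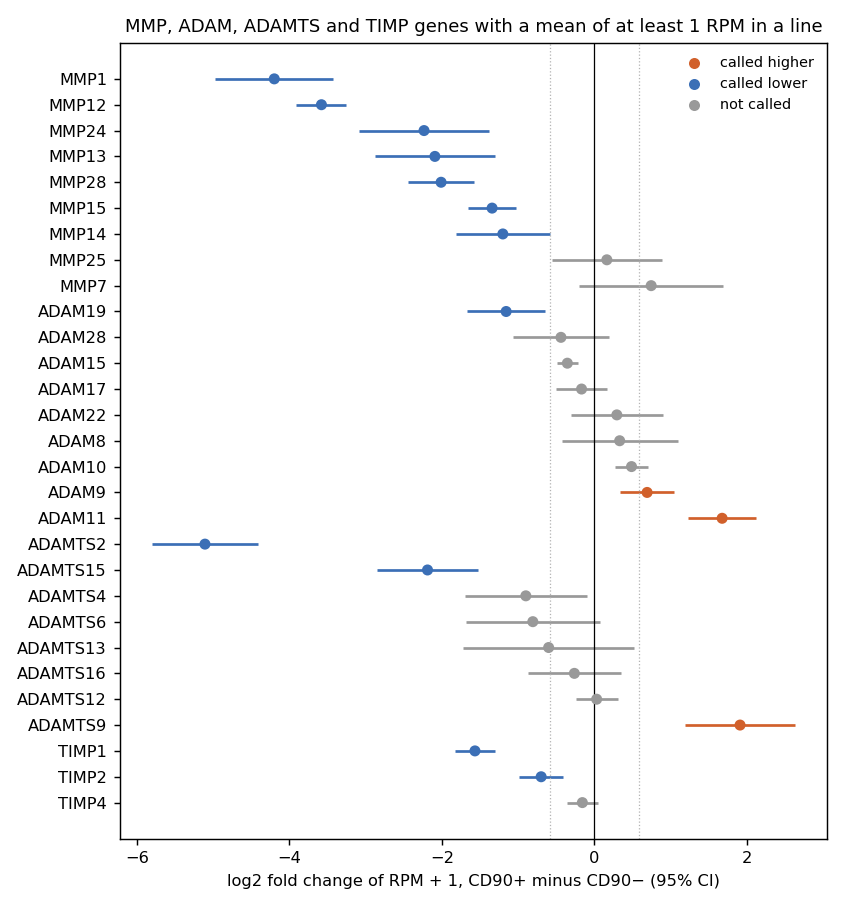
Log2 fold change of RPM + 1 (HuCCT1/CD90+ minus HuCCT1/CD90-) on the x axis for the members, with bars for the 95% confidence interval, n = 3 libraries of each line, and colour for called higher, called lower or not called. The 29 members with a mean of at least 1 RPM in a line are drawn. The 12 lower calls reach from -0.70 (TIMP2) to -5.11 (ADAMTS2), and the 3 higher calls from 0.70 (ADAM9) to 1.91 (ADAMTS9).

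Collagenases open fibrillar collagen by cutting its triple helix, and 2 of the 3 measured fell, beside 7.49% of all genes. MMP1, the interstitial collagenase, was at 98.9, 167 and 174 RPM in HuCCT1/CD90- and at 8.68, 5.59 and 6.40 RPM in HuCCT1/CD90+. All libraries of the blank line lay far above all libraries of the THY1 line. The means were 146 ± 41.3 and 6.89 ± 1.60 RPM (SD, n = 3 each), 21.2-fold lower in HuCCT1/CD90+, with a log2 fold change of -4.20 (SE 0.29, adjusted p = 0.0023). MMP13, a collagenase also known from cartilage, was at 6.54, 3.85 and 7.47 RPM against 1.07, 0.349 and 0.434 RPM. Its groups did not overlap, and its log2 fold change was -2.09 (SE 0.30, adjusted p = 0.015), 9.63-fold on the RPM scale. The MMP13 call was lost without HuCCT1/CD90- replicate 1 or 3 (adjusted p = 0.054 and 0.051) and without HuCCT1/CD90+ replicate 2 or 3 (0.056 and 0.063). MMP8, the neutrophil collagenase, had no read.

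MMP1 and MMP13 belong to a run of MMP genes on the long arm of chromosome 11, all on the minus strand, that spans 435 kb (GENCODE 29, GRCh38, chr11:102520508-102955734). Its 9 members in order of position were MMP7, MMP20, MMP27, MMP8, MMP10, MMP1, MMP3, MMP12 and MMP13. MMP20, MMP27 and MMP8 were at the floor in both lines, MMP27 and MMP8 without a read. MMP1 (chr11:102789920-102798160), MMP12 (chr11:102862736-102875034) and MMP13 (chr11:102942995-102955734), toward the other end, fell. MMP12, the macrophage elastase, was at 13.6, 10.1 and 10.8 RPM in HuCCT1/CD90- and was read once among the HuCCT1/CD90+ libraries, at 0.107, 0 and 0 RPM. It was at least 32.8-fold lower, with a log2 fold change of -3.58 (SE 0.12, adjusted p = 0.00048). MMP3, a stromelysin that lies between MMP1 and MMP12, had 4, 2 and 3 reads in the blank line and none in the THY1 line, and it was not called, since its fold on the log2(RPM + 1) scale was under 1.5 (adjusted p = 0.013). edgeR without a filter called MMP3 lower (adjusted p = 0.038) and DESeq2 did not (0.11). MMP10, the other stromelysin of the run, had at most 5 reads in any library.

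MMP7 (chr11:102520508-102530753), at the opposite end, had the other sign. Matrilysin, its product, is a small MMP made by glandular epithelium that also cuts cell surface proteins. It was at 12.6, 21.9 and 22.2 RPM in HuCCT1/CD90- and at 23.9, 46.0 and 28.3 RPM in HuCCT1/CD90+. The groups did not overlap, but the gap between them was small beside the spread within them, and the log2 fold change of 0.75 (95% CI -0.20 to 1.70) had an adjusted p of 0.26 and was not called. limma's adjusted p was 0.040 when genes averaging under 1 RPM were left out of the test and 0.029 when those under 10 RPM were. With edgeR's quasi-likelihood test on the recovered reads it was 0.00027 without a filter and 0.012 with edgeR's own filter, and with DESeq2 it was 0.0075, so that the call of MMP7 depends on the filter and on the test. Whether MMP7 and MMP1 differ in their response was not tested.

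**Figure D2:**
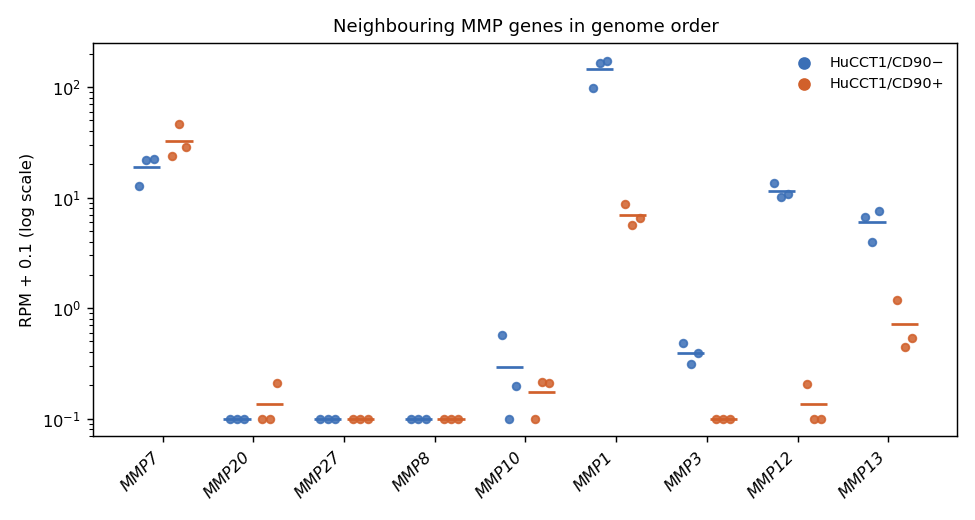
The 9 MMP genes of the chromosome 11 run in order of position (x axis) with RPM + 0.1 in each library on a log y axis, 3 points for each line and a bar for their mean. MMP1, MMP12 and MMP13 are lower in every HuCCT1/CD90+ library than in any HuCCT1/CD90- library, MMP7 is higher, and MMP20, MMP27 and MMP8 lie at the bottom of the axis.

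Membrane-type MMPs stay anchored to the cell and act at its surface, and 3 of the 6 measured fell, beside 7.49% of all genes. MMP14 (chr14:22836557-22849027), the activator of pro-MMP2, was at 246, 429 and 299.8 RPM in HuCCT1/CD90- and at 140.4, 147 and 125 RPM in HuCCT1/CD90+. The blank line varied by far more than the THY1 line, although the groups did not overlap. MMP14 was 2.36-fold lower, with a log2 fold change of -1.20 (SE 0.23, adjusted p = 0.032). That call was lost without HuCCT1/CD90- replicate 3 (adjusted p = 0.096), without HuCCT1/CD90+ replicate 1, 2 or 3 (0.099, 0.090 and 0.11), and with the replicate number as a block (0.078). MMP15 (chr16:58025566-58046901), a close relative, was at 324, 386 and 379 RPM against 124, 154 and 151 RPM. Its libraries were tight within each line, and it was 2.54-fold lower (log2 fold change -1.34, SE 0.12, adjusted p = 0.0044). The 50 genes nearest to MMP15 (of those with a mean of at least 10 RPM) had a median log2 fold change of -0.40, and with that median subtracted MMP15 stood at -0.94 (adjusted p = 0.012).

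MMP24 (chr20:35226654-35277000), a membrane-type MMP best known from neurons, was at 81.1, 59.6 and 41.9 RPM in HuCCT1/CD90- and at 9.86, 15.7 and 10.3 RPM in HuCCT1/CD90+. Each library of the THY1 line was below each of the blank line, and the means differed 5.09-fold (log2 fold change -2.23, SE 0.32, adjusted p = 0.015). The call was lost without HuCCT1/CD90- replicate 2 (adjusted p = 0.058), without HuCCT1/CD90+ replicate 1 or 3 (0.058 and 0.064), and with the replicate block (0.064). MMP25, another membrane-type MMP, was at means of 2.16 and 2.43 RPM (log2 fold change 0.17, 95% CI -0.56 to 0.89). MMP16 and MMP17 had no read.

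MMP28 (chr17:35756249-35795707), or epilysin, is expressed in many epithelia. It was at 4.08, 2.46 and 2.72 RPM in HuCCT1/CD90- and had no read in any HuCCT1/CD90+ library, at least 8.83-fold lower (log2 fold change -2.01, SE 0.16, adjusted p = 0.0033). The gelatinases MMP2 and MMP9, which degrade denatured collagen and basement membrane collagen, were at the floor in both lines, so no difference between the lines was detectable for either at this depth. MMP2 was at 0, 0.214 and 0 RPM in HuCCT1/CD90- and had no read in HuCCT1/CD90+. MMP9 was at 0, 0.107 and 0 RPM against 0.107, 0 and 0 RPM. MMP20, MMP21, MMP23B, MMP26 and MMP27 were at the floor as well. MMP11 and MMP19, which complete the MMPs, had means under 1 RPM in both lines and were not called.

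**Figure D3:**
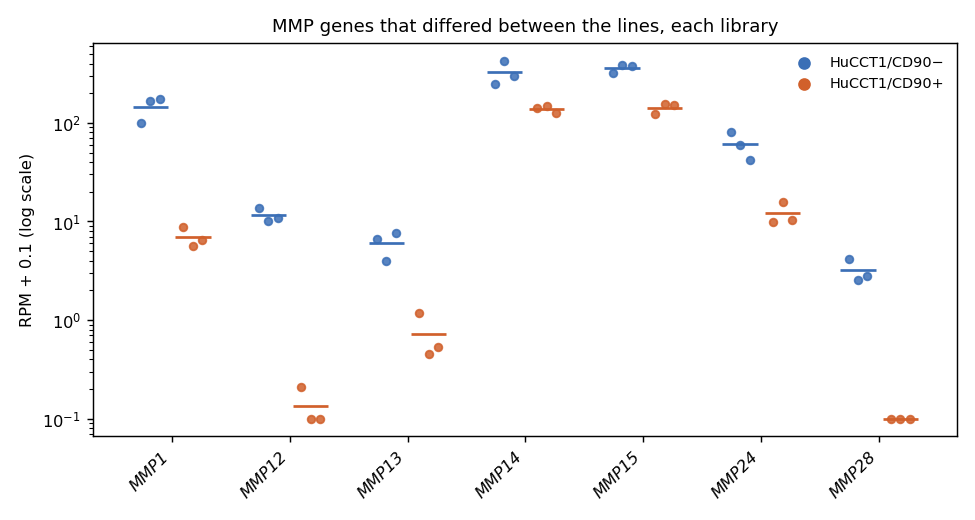
RPM + 0.1 on a log axis for the 7 MMP genes that fell, with a point for each of the 3 libraries of a line and a bar for their mean. For every gene all 3 HuCCT1/CD90+ libraries lie below all 3 HuCCT1/CD90- libraries, and MMP28 has no read in HuCCT1/CD90+.

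MMP promoters are known for binding sites of AP-1 and ETS factors, and E-boxes bind repressors of the SNAI and ZEB families, so the sequence upstream of the genes was read where the RefSeq table (GRCh38.p14) held one. The 250 bases before the RefSeq start were found for 39 of the 68 members, 6 of them called. The called members without an entry were MMP1, MMP12, MMP13, MMP28, ADAM9, ADAM11, ADAMTS9, ADAMTS15 and TIMP2. The 4 shown are MMP7, the single member with an AP-1 motif, MMP15, the called member with a pair of E-box matches, and ADAMTS2 and TIMP1, which among the called members with a sequence had the largest log2 fold change and the smallest SE. Capitals mark matches to TGAGTCA or TGACTCA (AP-1) and to CACCTG or CAGGTG (E-box), which cover both strands, and to TATAAA on the strand of the gene. In order they are chr11:102530748-102530997 on the minus strand, chr16:58025504-58025753 on the plus strand, chr5:179345462-179345711 on the minus strand and chrX:47582186-47582435 on the plus strand. The RefSeq starts used here differ from the GENCODE gene positions, and part of the MMP7, MMP15 and TIMP1 stretches lies within the GENCODE gene.
MMP7: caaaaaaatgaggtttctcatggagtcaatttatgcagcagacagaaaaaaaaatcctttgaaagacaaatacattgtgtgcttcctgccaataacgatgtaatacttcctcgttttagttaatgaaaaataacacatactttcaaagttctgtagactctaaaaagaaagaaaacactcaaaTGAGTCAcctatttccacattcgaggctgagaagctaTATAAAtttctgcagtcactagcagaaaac
MMP15: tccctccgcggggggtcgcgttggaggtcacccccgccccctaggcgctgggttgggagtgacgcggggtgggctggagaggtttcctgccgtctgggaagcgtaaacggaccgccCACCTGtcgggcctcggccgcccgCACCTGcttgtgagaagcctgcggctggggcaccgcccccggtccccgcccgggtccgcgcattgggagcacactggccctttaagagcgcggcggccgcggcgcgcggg
ADAMTS2: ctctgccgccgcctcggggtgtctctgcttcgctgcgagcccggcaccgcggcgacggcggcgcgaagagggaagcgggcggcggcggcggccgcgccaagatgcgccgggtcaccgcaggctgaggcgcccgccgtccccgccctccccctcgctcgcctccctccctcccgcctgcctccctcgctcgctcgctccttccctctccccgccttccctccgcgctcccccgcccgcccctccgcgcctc
TIMP1: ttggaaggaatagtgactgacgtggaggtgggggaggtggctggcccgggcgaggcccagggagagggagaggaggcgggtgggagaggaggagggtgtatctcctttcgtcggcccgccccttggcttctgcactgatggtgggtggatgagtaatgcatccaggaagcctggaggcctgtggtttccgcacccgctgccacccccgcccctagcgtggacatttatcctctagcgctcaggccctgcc

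The AP-1 motif stood in 1 of the 39 member promoters, that of MMP7, 67 bases before the RefSeq start, and in 4.2% of the 35116 promoters of the table. The E-box motif stood in 8 of 39 (20.5%), beside 17.5% of all promoters. Among the 6 called members with a sequence, MMP15 held it 134 and 110 bases before the RefSeq start, both within the gene as GENCODE places it, and ADAM19 held it 184 bases before the start. TATAAA stood in 6 of 39 (15.4%) and in 6.8% of all promoters, at 30 bases before the start of MMP7. The ADAMTS2 and TIMP1 stretches held none of these letters. The matches are a description of this window, and binding was not measured.

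The TIMPs are small secreted proteins that fill the active site of the proteases, and 2 of the 4 fell, beside 7.49% of all genes. TIMP1 (chrX:47582313-47586789) was at 861, 1031 and 973 RPM in HuCCT1/CD90- and at 296, 349 and 321 RPM in HuCCT1/CD90+. The spread within each line was small beside the gap. The means were 955 ± 86.1 and 322 ± 26.6 RPM (SD, n = 3 each), 2.97-fold lower, with a log2 fold change of -1.56 (SE 0.10, adjusted p = 0.0018). TIMP2 (chr17:78852977-78925387), which also takes part in the activation of pro-MMP2 by MMP14, was at 798, 880.2 and 812 RPM against 443, 538 and 561 RPM. It was 1.61-fold lower (log2 fold change -0.70, SE 0.11, adjusted p = 0.018). TIMP2 lost its call without HuCCT1/CD90- replicate 1, 2 or 3 (adjusted p = 0.055, 0.065 and 0.065), without HuCCT1/CD90+ replicate 2 (0.057) and with the replicate block (0.052).

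TIMP3, which binds the matrix and inhibits ADAM17 and ADAMTSs as well as MMPs, had 1, 1 and 8 reads in the blank line and 0, 2 and 2 in the THY1 line and was not called. TIMP4 was at 5.88, 5.67 and 4.85 RPM against 4.82, 5.01 and 4.56 RPM. These groups overlapped, and the log2 fold change was -0.15 (95% CI -0.35 to 0.04, adjusted p = 0.26). Proteases and inhibitors that are read over different amplicons give no ratio of protease to inhibitor, and none was computed.

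**Figure D4:**
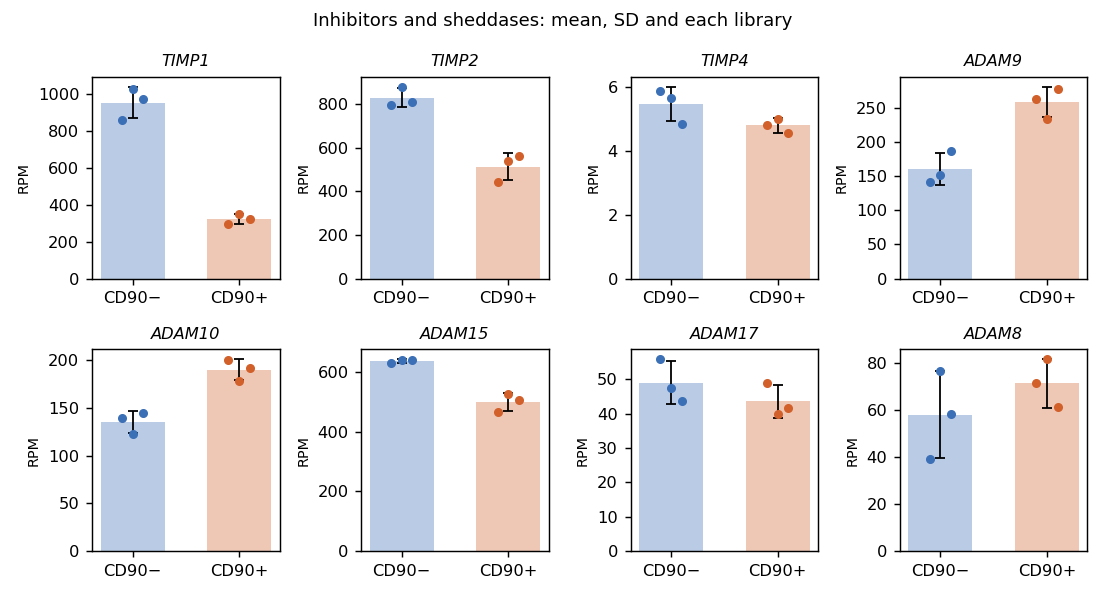
RPM (linear y axis from 0) of 3 TIMP and 5 ADAM genes in each line, with bars for the mean, error lines for the SD and a point for each of 3 libraries. TIMP1 and TIMP2 are lower in every HuCCT1/CD90+ library than in any HuCCT1/CD90- library, ADAM9 and ADAM10 are higher, and the groups of ADAM17 overlap.

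Among the ADAMs, 2 of 22 rose and 1 fell, beside 7.59% called higher and 7.49% called lower over all genes. At the floor in both lines were 10 ADAMs. ADAM9 (chr8:38996869-39105144), a sheddase of broad tissue range, was at 142, 152 and 187 RPM in HuCCT1/CD90- and at 264, 234 and 279 RPM in HuCCT1/CD90+. It was 1.62-fold higher, and its groups did not overlap (log2 fold change 0.70, SE 0.13, adjusted p = 0.031). This call was lost without HuCCT1/CD90- replicate 1 or 2 (adjusted p = 0.080 and 0.10), without HuCCT1/CD90+ replicate 1, 2 or 3 (0.10, 0.065 and 0.10) and with the replicate block (0.057). ADAM11 (chr17:44759031-44781846), which lacks a working catalytic site and is known from neurons, was at 1.71, 2.67 and 2.23 RPM against 8.79, 10.9 and 8.03 RPM. It was 4.20-fold higher (log2 fold change 1.68, SE 0.17, adjusted p = 0.0058), and the call held without each library in turn. ADAM19 (chr5:157395534-157575775), a sheddase of neuregulin, was at 19.5, 29.2 and 29.7 RPM against 10.1, 12.0 and 11.0 RPM. It was 2.37-fold lower (log2 fold change -1.16, SE 0.19, adjusted p = 0.022). Without HuCCT1/CD90- replicate 2 or 3 its adjusted p was 0.071 and 0.071, and without HuCCT1/CD90+ replicate 1, 2 or 3 it was 0.078, 0.065 and 0.083.

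ADAM10 and ADAM17 are the main sheddases of Notch, cadherins and EGF receptor ligands. ADAM10 was at 139, 123 and 144 RPM in HuCCT1/CD90- and at 200.3, 179 and 192 RPM in HuCCT1/CD90+. The groups did not overlap and the adjusted p was 0.022, but the 1.41-fold difference was under the fold that a call needs (log2 fold change 0.49, 95% CI 0.27 to 0.71). ADAM17 was at 55.9, 47.5 and 43.8 RPM against 49.0, 39.9 and 41.8 RPM, with overlapping groups and a log2 fold change of -0.17 (95% CI -0.51 to 0.17, adjusted p = 0.52). ADAM15, an ADAM with an integrin-binding motif, was at 630.0, 642 and 639.9 RPM against 465, 527 and 507 RPM, a 1.28-fold difference that was also under the fold for a call (adjusted p = 0.016). The 50 genes nearest to ADAM15 had a median of -0.38, against -0.35 for ADAM15 itself. ADAM8 was at 39.2, 76.7 and 58.6 RPM against 71.5, 81.9 and 61.2 RPM and was not called (log2 fold change 0.33, 95% CI -0.43 to 1.10).

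ADAM18, ADAM2, ADAM20, ADAM21, ADAM23, ADAM29, ADAM30, ADAM33, ADAM6 and ADAM7 were at the floor in both lines. Several of these, such as ADAM2 and ADAM18, are known from the testis and from sperm. ADAM5 and ADAM6 are annotated as pseudogenes, and ADAM6 had no read. The remaining ADAMs (ADAM12, ADAM22, ADAM28, ADAM32 and ADAM5) had log2 fold changes from -0.44 (ADAM28) to 0.35 (ADAM5), and none was called.

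Among the ADAMTSs, 1 of 19 rose and 2 fell, beside 7.59% called higher and 7.49% called lower over all genes. ADAMTS2 (chr5:179110851-179345430) removes the amino-terminal propeptide of fibrillar procollagens, and it showed the largest log2 fold change of any member on the scale of log2(RPM + 1). With edgeR and DESeq2 MMP12 had the larger log2 fold change (-7.85 against -7.69 and -8.17 against -7.78), as had MMP28 with edgeR (-7.90). It was at 29.9, 54.5 and 38.2 RPM in HuCCT1/CD90- and at 0.214, 0.349 and 0 RPM in HuCCT1/CD90+, where no library had more than 3 reads. It was at least 117-fold lower, with a log2 fold change of -5.11 (SE 0.26, adjusted p = 0.0012). The other members with this activity, ADAMTS3 and ADAMTS14, were at the floor in both lines or under 1 RPM, and neither was called.

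ADAMTS15 (chr11:130448974-130476641) and ADAMTS9 (chr3:64515654-64688000) both cut proteoglycans of the aggrecan and versican kind, and they went opposite ways. ADAMTS15 was at 28.1, 30.5 and 27.4 RPM in HuCCT1/CD90- and at 3.54, 6.64 and 6.94 RPM in HuCCT1/CD90+, 5.02-fold lower (log2 fold change -2.19, SE 0.25, adjusted p = 0.0085). ADAMTS9 was at 0.569, 0.963 and 1.26 RPM against 6.43, 4.31 and 8.46 RPM, 6.88-fold higher (log2 fold change 1.91, SE 0.27, adjusted p = 0.015). For neither gene did the groups overlap. ADAMTS9 lost its call without HuCCT1/CD90- replicate 2 (adjusted p = 0.055), without HuCCT1/CD90+ replicate 1 (0.060) and with the replicate block (0.051). The other proteoglycan-cleaving ADAMTSs were not called. ADAMTS4, for instance, was at 1.04, 1.71 and 0.291 RPM against 0.107, 0 and 0 RPM (adjusted p = 0.12), while edgeR without a filter and DESeq2 called it lower (adjusted p = 0.00014 and 0.0065). ADAMTS5 had no read.

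The 3 other ADAMTSs above 10 RPM gave no call. ADAMTS12 was at 291, 237 and 240.1 RPM against 243, 267 and 273 RPM, with a log2 fold change of 0.03 (95% CI -0.24 to 0.31). ADAMTS16 was at 18.6, 18.8 and 24.1 RPM against 12.3, 20.6 and 18.7 RPM (log2 fold change -0.26, 95% CI -0.87 to 0.35). The groups of both genes overlapped. ADAMTS6, which acts on matrix microfibrils, was at 26.6, 43.7 and 52.2 RPM against 29.2, 17.6 and 20.9 RPM. Its highest HuCCT1/CD90+ library lay above its lowest HuCCT1/CD90- library, and limma's adjusted p was 0.20 (log2 fold change -0.81, SE 0.33). ADAMTS6 was called by limma once genes averaging under 1 or under 10 RPM were left out (adjusted p = 0.023 and 0.016), by edgeR on the recovered reads (5.6e-05 without a filter, 0.0046 with one) and by DESeq2 (0.0024). ADAMTS17, at means of 0.986 and 0.263 RPM, was not called (adjusted p = 0.051). It was called lower by edgeR without a filter (adjusted p = 0.031) and not by DESeq2 (0.096). Limma called ADAMTS17 lower with the median of its 50 nearest genes subtracted (adjusted p = 0.039).

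The genes that work with these proteases were read from 8 lists of 69 genes in all, of which 13 rose and 9 fell, beside 7.59% and 7.49% of all genes. Proprotein convertases cut the propeptide from membrane-type MMPs, ADAMs and ADAMTSs, and 1 of 4 rose. PCSK6, a secreted convertase that binds the matrix, had 0, 0 and 1 reads in HuCCT1/CD90- and a mean of 25.2 ± 5.31 RPM in HuCCT1/CD90+ (SD, n = 3), at least 78.4-fold higher (log2 fold change 4.65, adjusted p = 0.00052). FURIN, the convertase of most cells, was at 65.6 ± 11.6 and 56.1 ± 9.46 RPM (SD, n = 3 each) and was not called (log2 fold change -0.22, 95% CI -0.71 to 0.27). In the plasminogen system, which activates pro-MMPs through plasmin, SERPINB2 was at means of 2.88 and 10.6 RPM (log2 fold change 1.54, adjusted p = 0.033), a call that was lost with the replicate block (adjusted p = 0.13) and without any 1 library other than HuCCT1/CD90+ replicate 2 (up to 0.11). The activator genes PLAU and PLAT and the receptor gene PLAUR were not called, with log2 fold changes of 0.48, -0.31 and 0.48.

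Of 7 further inhibitors and clearance receptors, 4 fell and none rose, beside 7.49% and 7.59% of all genes. SPOCK1, a secreted proteoglycan of the testican family, went from 62.5 ± 16.5 to 1.07 ± 0.186 RPM (SD, n = 3 each), 58.3-fold lower (adjusted p = 0.0010). LRP1, the endocytic receptor that clears MMP13, ADAMTS proteases and complexes of proteases with inhibitors, went from 131 ± 52.0 to 11.3 ± 2.99 RPM, 11.6-fold lower (log2 fold change -3.37, adjusted p = 0.0095). SPOCK3 went from 7.17 to 1.51 RPM (adjusted p = 0.018), and it lost its call with the replicate block (0.055), without HuCCT1/CD90- replicate 2 (0.059) and without any 1 HuCCT1/CD90+ library (up to 0.069). RECK, a membrane-anchored inhibitor of MMPs, was at 5.67 ± 1.01 and 1.52 ± 0.868 RPM (adjusted p = 0.049), and it lost its call with the replicate block (0.097) and without any 1 library other than HuCCT1/CD90+ replicate 1. RECK is named here after its values were seen. BSG, a surface protein known as an inducer of MMPs, was not called (log2 fold change -0.36, adjusted p = 0.16). None of 9 genes for partners of ADAM17 and ADAM10 was called. Among them RHBDF2, an iRhom that carries ADAM17 to the surface, was at 30.8 ± 8.41 and 58.2 ± 7.03 RPM (adjusted p = 0.068). TSPAN17 was at 11.0 ± 2.28 and 20.3 ± 3.95 RPM (adjusted p = 0.061). With the study's own thresholds RHBDF2 and TSPAN17 passed. None of 7 ADAMTS-like genes was called.

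Of 21 genes for proteins that ADAMs shed, 9 rose and 2 fell. Over all genes the called shares were 7.59% higher and 7.49% lower, and over genes averaging at least 1 RPM 12.0% and 12.1%. CDH1, or E-cadherin, which ADAM10 cuts, went from 14.4 ± 1.69 to 227 ± 23.1 RPM (SD, n = 3 each), 15.7-fold higher (log2 fold change 3.89, adjusted p = 0.00043). The EGF receptor ligand genes AREG (8.97-fold, log2 fold change 3.15, adjusted p = 0.0050) and HBEGF (7.66-fold, log2 fold change 2.88, adjusted p = 0.0012) followed on the log2(RPM + 1) scale, with means of 19.6 and 176 RPM and of 18.7 and 143 RPM. Of the ligands named after their values were seen, TGFA was 2.74-fold and EREG 3.48-fold higher, and BTC was at least 8.91-fold higher. BTC was no longer called with an offset of 5 RPM (log2 fold change 0.57). EGF itself was at 0.259 and 1.17 RPM and was not called (adjusted p = 0.13). EREG lost its call with the replicate block (adjusted p = 0.065), without HuCCT1/CD90- replicate 2 (0.068) and without any 1 HuCCT1/CD90+ library (up to 0.079). CD44, MET and IL6R, likewise named after their values were seen, were the other genes that rose, by log2 fold changes of 2.57, 1.05 and 1.37. IL6R lost its call without any 1 library other than HuCCT1/CD90+ replicate 1 (adjusted p of up to 0.12), and MET without any 1 other than HuCCT1/CD90- replicate 3 or HuCCT1/CD90+ replicate 2 (up to 0.066). MET was called no longer once the median of its 50 nearest genes, 0.62, was subtracted (adjusted p = 0.17). ERBB4, a receptor that ADAM17 cuts, fell, with means of 5.02 and 1.44 RPM (log2 fold change -1.30, adjusted p = 0.0043), and NOTCH1 fell, with means of 36.8 and 19.8 RPM (log2 fold change -0.86, adjusted p = 0.033). NOTCH1 lost its call without any 1 library (adjusted p of 0.063 to 0.10). Shedding itself was not measured.

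**Figure D5:**
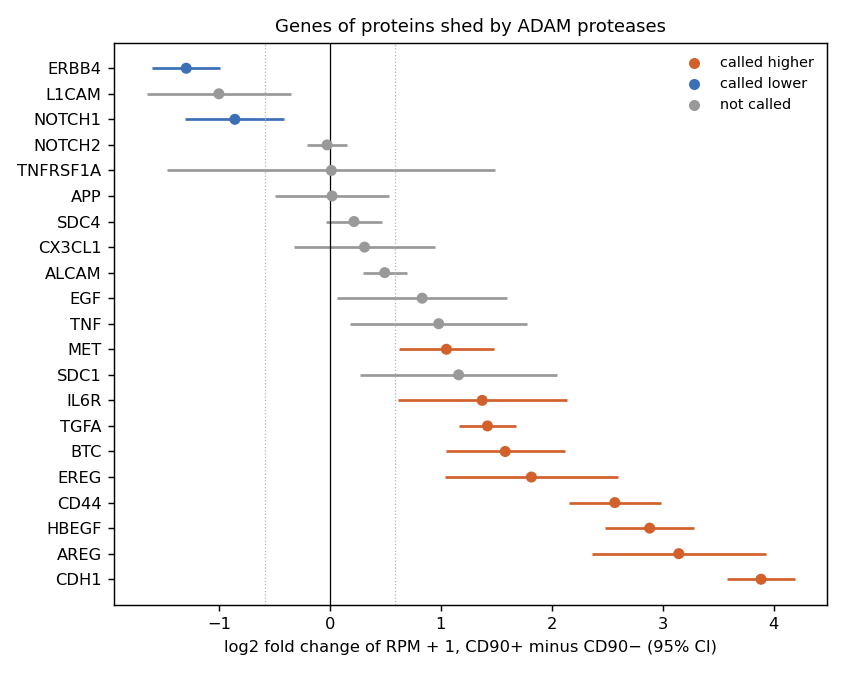
Log2 fold change of RPM + 1 (HuCCT1/CD90+ minus HuCCT1/CD90-) on the x axis with its 95% confidence interval for 21 genes of shed proteins, n = 3 libraries of each line, with dotted lines at a fold of 1.5. The 9 higher calls reach from 1.05 (MET) to 3.89 (CDH1), and the 2 lower calls are ERBB4 at -1.30 and NOTCH1 at -0.86.

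Of 14 genes for transcription factors known to act on MMP promoters, which covered AP-1 and ETS factors and RUNX2, 1 rose and 3 fell. Over all genes the called shares were 7.59% higher and 7.49% lower. RUNX2, a regulator of MMP13 in bone and cartilage, fell from 22.1 ± 3.20 to 5.25 ± 0.569 RPM (SD, n = 3 each; log2 fold change -1.88, adjusted p = 0.0023). ETV1 fell, at means of 19.1 and 3.91 RPM (log2 fold change -2.04, adjusted p = 0.0015), and JUN fell from a mean of 1.67 RPM to 0.623 RPM (log2 fold change -0.72, adjusted p = 0.028). JUN is a low gene here, and its call was lost with DESeq2 (adjusted p = 0.078) and without any 1 library other than HuCCT1/CD90- replicate 2. ELF3, an epithelial ETS factor, was at 29.4 and 96.8 RPM and rose (log2 fold change 1.67, adjusted p = 0.018). This call was lost without HuCCT1/CD90- replicate 2 or 3 (adjusted p = 0.0504 and 0.062) or HuCCT1/CD90+ replicate 2 or 3 (0.070 and 0.064). FOSL1, at 205 and 318 RPM, was not called (adjusted p = 0.25).

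Markers of other cell types were read beside these values, since fibroblasts, macrophages and endothelial cells make many of the same proteases. The summed level of 7 fibroblast markers was 41.8 to 65.3 RPM in the HuCCT1/CD90- libraries and 20.4 to 24.7 RPM in the HuCCT1/CD90+ libraries, with COL1A1 at means of 13.5 and 14.2 RPM, LUM at 26.4 and 7.30 RPM, DCN at 7.09 and 0.0387 RPM, PDGFRB at 5.49 and 0.697 RPM, and COL1A2 and COL3A1 under 1 RPM on average in HuCCT1/CD90- and at 0 in HuCCT1/CD90+. That of 4 endothelial markers was 14.5 to 23.2 RPM and 0.643 to 1.63 RPM, with CDH5 at means of 16.6 and 0.293 RPM, PECAM1 at 2.19 and 0.527 RPM, and VWF and KDR at or near 0. The sum of 5 leukocyte markers was 70.2 to 89.2 RPM and 5.25 to 6.06 RPM, and most of it was CD14, at means of 80.8 and 4.32 RPM, with CSF1R at 0.727 and 1.11 RPM, while PTPRC, the pan-leukocyte marker, had at most 1 read in any library. The sum of 3 hepatocyte markers was 1.75 to 4.28 RPM and 0 to 0.429 RPM. APOA1 was at means of 3.24 and 0.221 RPM, while ALB and TTR had no read in HuCCT1/CD90-. These sums were lower in HuCCT1/CD90+ together with MMP1, MMP12, ADAMTS2 and TIMP1, and their part in those results was not tested. In bulk RNA, fewer cells of a type and less RNA per cell cannot be told apart.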

How the data were processed

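Total RNA of 6 libraries was reverse transcribed, amplified with a targeted transcriptome panel and read on an Ion GeneStudio S5 Prime by the authors. The authors deposited RPM values, read numbers scaled to a common library total, for 20811 genes in 1 table without coordinates. The submitters' processing notes name hg19 and the Transcriptome Analysis Console. The positions given here are from GENCODE 29 (GRCh38) by symbol, for all 68 members, and were not used to count reads.

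RPM values were whole multiples of 1 read for 100% of values within 0.05 reads, which gave the depth. Reads carried no molecular identifiers, so the floor of 3 reads covers counting error only, and lower bounds use the highest floor among a line's libraries. All genes were tested on log2(RPM + 1), which understates folds of low genes, with limma 3.58.1 in R 4.3.3, two-sided, after the study's methods (eBayes, fold of 1.5), with Benjamini-Hochberg adjustment over 20811 genes. Every adjusted p without another name is limma's. Each pair of libraries differed by more than sampling noise. The fits were run on simulated libraries without paired replicates, with known changes only in genes averaging at least 10 RPM. That simulation does not cover changes in lower genes.

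The replicate numbers of the labels were checked as pairs. Deviations from the line means correlated across genes at 0.21, 0.32 and 0.18 for equal numbers and at -0.29 to 0.07 for unequal ones. These deviations cancel out within a line, so the values are not independent of each other. The labels do not say that the numbers mark pairs, and whether they pair the libraries was not tested. The main test had no replicate block, and calls that the block changed are given beside the result. Alternatives were edgeR 4.0.16 and DESeq2 1.42.0 on the recovered reads, other offsets, filters, scalings and thresholds, each library left out, and, for each gene, the median log2 fold change of its 50 nearest genes (mean of at least 10 RPM) taken out of the HuCCT1/CD90+ values. Values are given for every called member, the TIMPs, MMP2, MMP9, MMP14, ADAM10, ADAM17 and members above 10 RPM, and for up to 3 called genes per further list and direction. Other genes were named after their values were seen. The families and lists were chosen with earlier results of these data known, and all genes of the families were then taken. The result for 1 gene of the further lists is not reported here, though the counts over all lists include it.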

Additional observations from a re-analysis of the deposited data

How the results depend on the processing

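Of the 15 members called, 8 (ADAM11, ADAMTS15, ADAMTS2, MMP1, MMP12, MMP15, MMP28 and TIMP1) kept their call without each library in turn and under every alternative in which they were tested, and none changed sign. With the replicate block 1 member was called higher and 9 were called lower, against 3 and 12, and no other call of a member changed than those of ADAM9, ADAMTS9, MMP14, MMP24 and TIMP2. Leaving out 1 library gave 1 to 3 members higher and 8 to 10 lower, 8 to 11 related genes higher and 5 to 8 lower, and 1868 to 2414 genes called in all, the fewest without HuCCT1/CD90+ replicate 3. Without HuCCT1/CD90- replicate 3 it was 2083, against 3138 with all libraries. At a minimum fold of 2 it was 1874, and ADAM9 and TIMP2 were no longer called. With edgeR on the recovered reads, without a filter, 4689 genes and 20 related genes higher (13 with limma) were called. DESeq2 called 4238 genes. The cause of these differences was not tested.

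Of 10 members that were not called and were followed through the alternatives in which they were tested (ADAM8, ADAM10, ADAM15, ADAM17, ADAMTS6, ADAMTS12, ADAMTS16, MMP7, TIMP3 and TIMP4), 3 changed sign under one of them. ADAMTS12 stood at -0.011 with quantile normalization and at -0.020 to 0.13 with 1 library left out, below 0 without HuCCT1/CD90- replicate 2 or 3 or HuCCT1/CD90+ replicate 3. TIMP3 stood at -0.29 to 0.056 with 1 library left out, above 0 without HuCCT1/CD90- replicate 3, and ADAM15 at 0.028 with its 50 nearest genes subtracted. The log2 fold change of low genes depends on the offset and test, from -7.78 to -3.11 for ADAMTS2 and from -8.17 to -1.70 for MMP12, but from -1.64 to -1.51 for TIMP1. With 3 libraries of a line, no difference was detectable for the 26 members at the floor in both lines.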
